A study of Zea mays with 12 samples.

Results

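The maize microRNA precursor genes other than those of the MIR156 family were taken as all features of the 1 h count table whose identifier begins with zma-MIR and is not a MIR156 gene. This rule used only the identifier. It gave 94 precursor genes in 25 families, of 38444 features in the table, and left out 10 MIR156 genes. RNA came from seedling shoots, taken without roots, of maize carrying mop1-1 in a B73 background, into which the allele had been crossed, and of wild type (WT) siblings. The 4 groups were homozygous mop1-1 seedlings in Murashige and Skoog nutrient solution with 50 µM abscisic acid (mop1-1 ABA), homozygous mop1-1 seedlings in the same solution without it (mop1-1 MS), homozygous WT seedlings with abscisic acid (WT ABA) and homozygous WT seedlings without it (WT MS), each kept there for 1 h. All seedlings stood in MS solution, and each group had 3 libraries described as biological replicates, which makes 12 libraries. The mop1 gene was not analysed here, so the genotype of each library is as labelled and was not checked against it. For the gene CA2P12, described below, the direction between the genotypes with ABA is opposite to the one the paper lists. It is the only gene of that list described here, so the difference need not be confined to it. All directions between genotypes given here rest on the labels.

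A microRNA gene is transcribed by RNA polymerase II into a capped and polyadenylated primary transcript that folds into a hairpin. In plants a Dicer-like enzyme cuts the hairpin in the nucleus, and the mature microRNA then guides an Argonaute protein to mRNAs with a matching site. The libraries are labelled as polyadenylated RNA, so their counts come from longer transcripts over the locus and do not measure the mature microRNA. Members of 1 family give the same or nearly the same mature sequence from different loci, and most of the conserved plant families repress mRNAs of transcription factors, nutrient transporters or copper proteins. MOP1 is the maize RNA-dependent RNA polymerase of RNA-directed DNA methylation, which makes the double-stranded precursors of small interfering RNAs. MicroRNA hairpins do not need such a polymerase.

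The comparisons followed the analysis groups of the study. Group A set mop1-1 ABA against mop1-1 MS, Group B set WT ABA against WT MS, Group C set mop1-1 ABA against WT ABA, and Group D set mop1-1 MS against WT MS. The interaction is the ABA effect in mop1-1 minus the ABA effect in WT. The genotype effect is the mean of Groups C and D, and the ABA effect over both genotypes is the mean of Groups A and B. These comparisons share libraries, so their values for 1 gene are not independent. Levels are given as CPM, the count relative to the TMM-scaled size of the library. They are compared between libraries of 1 gene and not between genes, since the length of each primary transcript is not known here.

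Library totals ran from 38295994 to 65574775 counts, and their median was 58322593. The photosystem genes psad1 and psbs1, used as shoot markers, averaged 380 and 1975 CPM over the 12 libraries. Of the root markers, the nitrate transporter gene nrt2.2 averaged 0.050 CPM and the phosphate transporter gene PHT1-3 averaged 8.96 CPM. The genotype effect on psbs1 was −0.28 (SE 0.13) and on PHT1-3 −0.36 (SE 0.20) on the log2 scale, and neither was significant after adjustment over all features. In whole shoots, fewer cells of a type and less RNA per cell cannot be told apart. WT MS replicate 3 stood apart from the other libraries: its chi-square per degree of freedom against its replicates was 168 and 208, against 33.4 to 96.4 for all other pairs of replicates. It held the highest level of MIR168a, MIR171d, MIR396d and MIR827 among the 12 libraries.

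The precursor genes were a small part of the RNA, with 0.0144% to 0.0241% of the counts of a library. Of the 94 genes, 14 had no count in any library and 33 had 1 to 9 counts over all 12 libraries. Another 25 had 10 or more counts but did not reach 0.58 CPM in 3 libraries, the level at which a feature was tested. The other 22 genes, of 17 families, were tested and held 98.9% of the precursor counts. MIR2275d alone held 30.5% and MIR398b 17.5% of them.

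**Figure D1:**
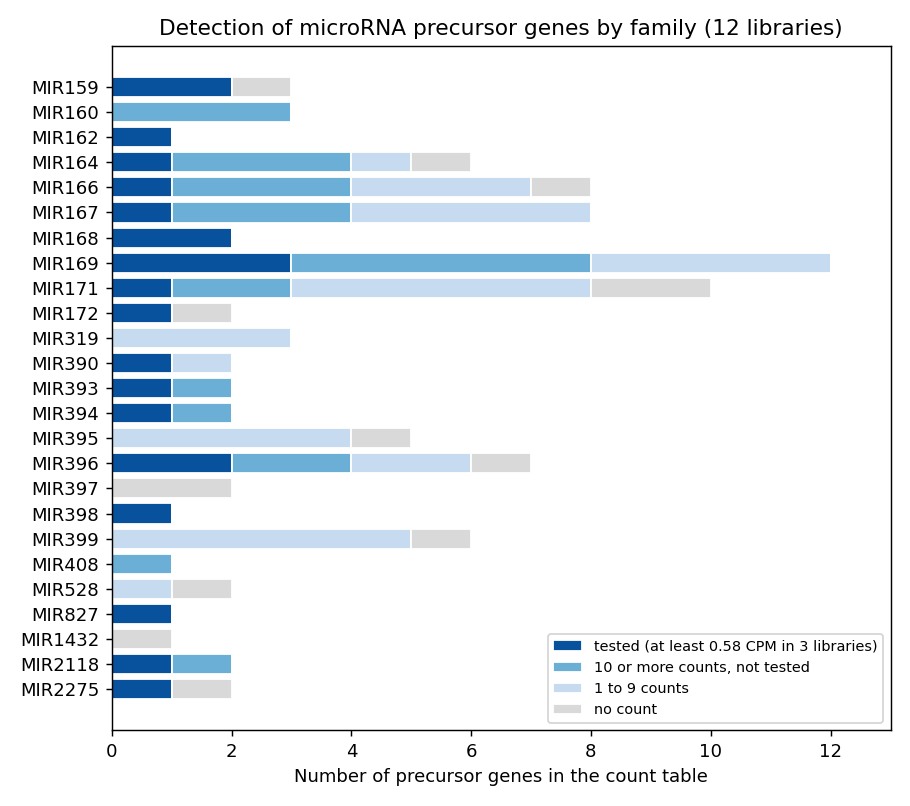
Number of precursor genes of each microRNA family in the count table (horizontal axis), split by how they were detected over the 12 libraries. Of 94 genes, 22 in 17 families were tested, and the 2 families without any count were MIR397 and MIR1432.

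Detection differed between families. All members were tested in MIR168, with 2 genes, and in MIR162, MIR398 and MIR827, with 1 gene each. MIR168 acts on AGO1 and MIR162 on DCL1 in Arabidopsis, so both bear on the microRNA pathway itself. The MIR169 family, whose targets are the NF-YA subunits of a CCAAT-binding transcription factor, was the largest: all 12 genes had a count, 8 had 10 or more and 3 were tested. In MIR171, which acts on GRAS transcription factors, 8 of 10 genes had a count and 1 was tested. MIR166 and MIR167, which act on class III HD-ZIP factors and on auxin response factors, had 8 genes each, with 1 tested in each.

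Several other families had few counts or none. The 5 MIR395 genes (sulfate assimilation) had 17 counts in all and the 6 MIR399 genes (phosphate homeostasis) 19 counts over 12 libraries. The 3 MIR319 genes, which act on TCP transcription factors, had 10 counts. Among the families that act on laccases and other copper proteins, the 2 MIR397 genes had no count, the 2 MIR528 genes had 5 counts, and MIR408b had 30 counts. MIR1432 had none. Among the genes with 10 or more counts that were not tested, MIR396f had the most, with 46 counts in mop1-1 ABA and 52 in mop1-1 MS, against 86 in WT ABA and 54 in WT MS. MIR169m had 34 counts in mop1-1 ABA and 46 in mop1-1 MS, against 33 in WT ABA and 35 in WT MS. These sums are not scaled for library size, and single libraries weigh heavily in them. The WT ABA libraries had 22, 9 and 55 counts of MIR396f and 0, 2 and 31 counts of MIR169m. The 72 genes below the threshold were not tested in the fit reported here.

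Where a precursor lies in the genome went with its detection. All 94 genes had an entry in RefSeq (assembly Zm-B73-REFERENCE-NAM-5.0, used for names and neighbours only, since the counts were made on the earlier B73 version 4 genome). Their annotated hairpins were 66 to 270 nt long with a median of 125 nt, and 69 of 94 were shorter than the 150 bp reads. Of the 47 genes that lay in an annotated long noncoding RNA gene and in no protein-coding gene, 16 were tested, with a median of 36 counts. Of the 37 genes that overlapped no protein-coding, long noncoding RNA or other microRNA gene of RefSeq, 1 was tested (MIR159f), with a median of 4 counts. Of the 8 genes that overlapped a protein-coding gene, 5 were tested (MIR169c, MIR169e, MIR396d, MIR2118d and MIR2275d), and these 5 held 49.8% of all precursor counts. The strand setting of the counting was not given in the sources used here. For these 5 genes, and for genes inside noncoding transcripts, reads of the hairpin's own transcript and of the overlapping gene cannot be told apart. MIR169e also overlaps MIR169h, which had no value of its own here.

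**Figure D2:**
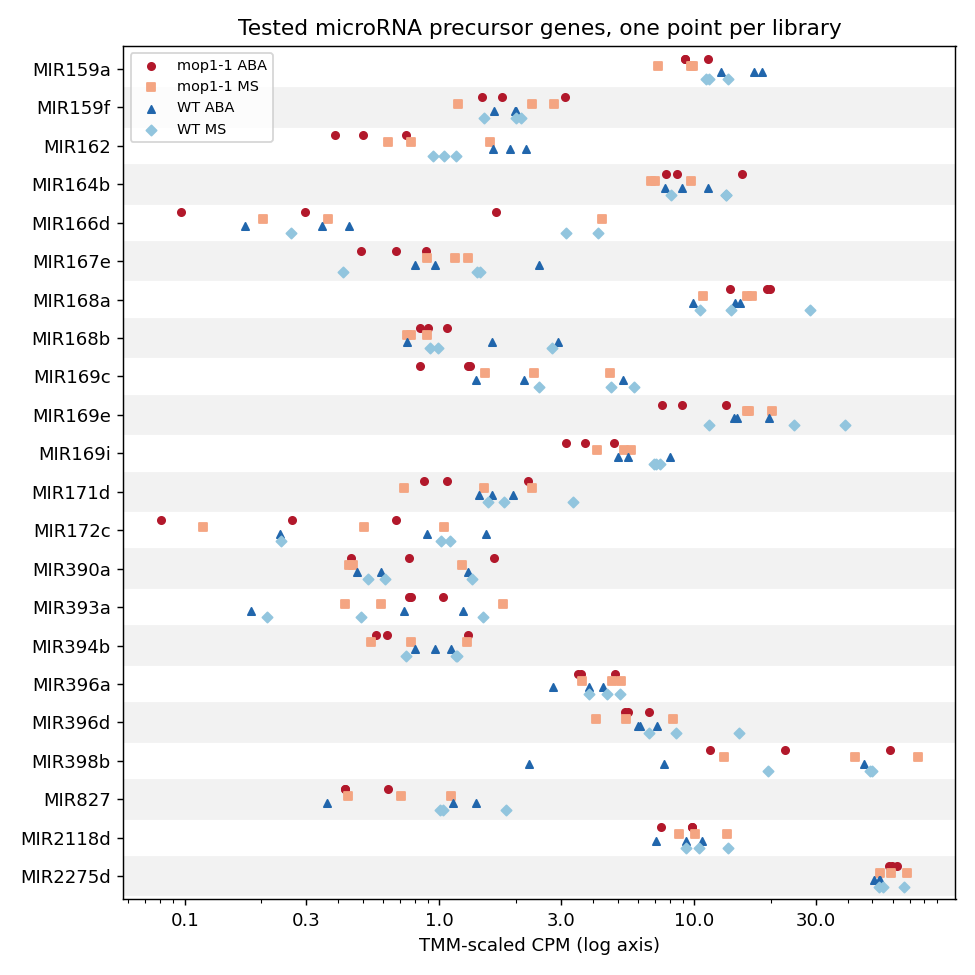
TMM-scaled CPM (horizontal log axis) of each of the 22 tested precursor genes in each of the 12 libraries, with 1 point per library and the colour giving the group. MIR2275d lies within a 1.35-fold range, while MIR398b and MIR166d range over 33.5-fold and 44.9-fold.

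The question of Groups C and D is which precursor genes differ between mop1-1 and WT seedlings with and without ABA. In Group C, 5 of the 22 tested genes (MIR159a, MIR162, MIR169c, MIR169e and MIR169i) had all 3 mop1-1 ABA libraries below all 3 WT ABA libraries, and MIR2275d had them above. Over all 26401 features tested, 24.8% did not overlap in Group C and 12.4% did not overlap with mop1-1 ABA lower. No precursor gene was called by the edgeR quasi-likelihood test, which required an adjusted p of 0.05 or less with a log2 fold change of 0.95 or more in either direction, against 1.19% of all features. At an unadjusted p under 0.05 there were 4 of 22 genes (MIR159a, MIR162, MIR169c and MIR169i), all lower in mop1-1 ABA, against 16% of all features in either direction and 7.89% lower. The edgeR exact test and DESeq2 each called 1 precursor gene, MIR162, against 2.95% and 3.33% of all features. The median log2 fold change of the 22 genes was −0.17, against 0.01 over all features, and 13 of 22 genes were below 0, against 48.3% of all features.

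MIR162 had the largest difference in Group C. It had 45, 20 and 24 counts in mop1-1 ABA libraries, or 0.740, 0.499 and 0.388 CPM, against 89, 120 and 115 counts, or 1.62, 1.90 and 2.2 CPM, in WT ABA libraries. In MS solution it had 0.773, 1.58 and 0.626 CPM in mop1-1 and 1.04, 1.16 and 0.941 CPM in WT. The groups with ABA did not overlap, and those in MS did. The log2 fold change in Group C was −1.81 (SE 0.45), with an adjusted p of 0.0785 by the quasi-likelihood test, 0.00979 by the edgeR exact test and 0.00428 by DESeq2. Leaving out 1 library at a time gave adjusted p of 0.0581 to 0.237 by the quasi-likelihood test. In Group D it was −0.08 (SE 0.44).

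The fitted ABA effects on MIR162 had opposite signs in the 2 genotypes. In Group A its log2 fold change was −0.87 (SE 0.45) and in Group B 0.86 (SE 0.44), where all WT ABA libraries lay above all WT MS libraries. The difference between these effects, the interaction, was −1.73 (SE 0.62), with an unadjusted p of 0.0169, and it was not significant after adjustment (adjusted p = 0.9999 by the quasi-likelihood test and 0.680 by DESeq2). MIR162 was the only precursor gene with an interaction p under 0.05, 1 of 22 against 4.24% of all features. None was called (0% of all features by the quasi-likelihood test and 0.102% by DESeq2).

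**Figure D3:**
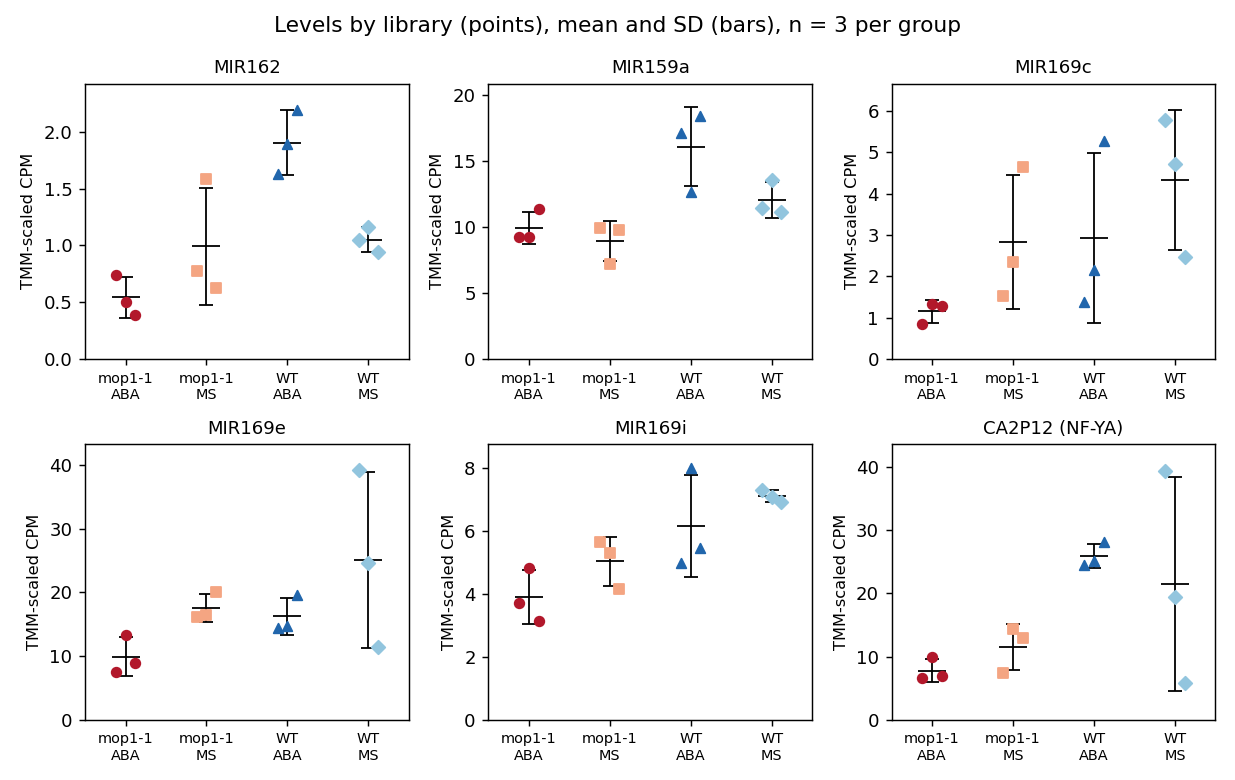
TMM-scaled CPM (vertical axes) of MIR162, MIR159a, the 3 tested MIR169 genes and the NF-YA gene CA2P12 in each library (points) of the 4 groups, with the mean and SD of 3 libraries. In all 6 panels the mop1-1 ABA libraries lie below the WT ABA libraries, and the precursor genes were not called by the quasi-likelihood test in this comparison.

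MIR159a, of a family that acts on GAMYB transcription factors of gibberellin and ABA signalling, was lower in mop1-1 in both solutions. It had 9.20, 9.23 and 11.3 CPM in mop1-1 ABA against 17.1, 12.7 and 18.4 CPM in WT ABA, and 9.90, 7.18 and 9.74 CPM in mop1-1 MS against 11.4, 13.6 and 11.1 CPM in WT MS. Neither pair of groups overlapped. The log2 fold change was −0.69 (SE 0.19) in Group C, with an adjusted p of 0.0971 by the quasi-likelihood test, 0.0437 by the edgeR exact test and 0.0205 by DESeq2, and −0.43 (SE 0.19) in Group D, with an adjusted p of 0.450 by the quasi-likelihood test. The fold in Group C was below the threshold for a call. Over both treatments the genotype effect was −0.56 (SE 0.13), with an adjusted p of 0.0327, so MIR159a passed the p threshold there and missed the fold threshold. By the quasi-likelihood test 1 of 22 genes had an adjusted p of 0.05 or less there at any fold, against 4.55% of all features. By DESeq2 the adjusted p was 0.00306 for MIR159a, 0.0190 for MIR169i and 0.0430 for MIR162, whose log2 fold change, −0.95 after rounding, fell just short of the fold threshold. For MIR159a, leaving out 1 library at a time gave quasi-likelihood adjusted p of 0.0244 to 0.0823, at most 0.05 in 5 of 12 fits. The other tested member of the family, MIR159f, ranged from 1.19 to 3.11 CPM over the 12 libraries, with log2 fold changes of 0.18 (SE 0.38) in Group C and 0.17 (SE 0.38) in Group D.

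The 3 tested MIR169 genes pointed the same way in Groups C and D. MIR169c had 0.838, 1.32 and 1.29 CPM in mop1-1 ABA against 1.39, 2.15 and 5.27 CPM in WT ABA, and 1.51, 2.34 and 4.65 CPM in mop1-1 MS against 5.79, 4.73 and 2.47 CPM in WT MS. MIR169e had 7.46, 13.3 and 8.94 CPM in mop1-1 ABA against 14.3, 14.7 and 19.6 CPM in WT ABA, and 16.2, 16.4 and 20.1 CPM in mop1-1 MS against 39.1, 24.6 and 11.4 CPM in WT MS. MIR169i had 3.71, 4.84 and 3.14 CPM in mop1-1 ABA against 5.0, 8.02 and 5.48 CPM in WT ABA, and 5.65, 5.30 and 4.16 CPM in mop1-1 MS against 7.31, 7.08 and 6.94 CPM in WT MS. With ABA all 3 genes had no overlap between the genotypes, and in MS only MIR169i of the 3 had none. The log2 fold change in Group C was −1.35 (SE 0.55) for MIR169c, −0.72 (SE 0.35) for MIR169e and −0.66 (SE 0.23) for MIR169i, with adjusted p of 0.254, 0.349 and 0.186. For MIR169c it was −0.62 without WT ABA replicate 3, the highest library of that group. In Group D it was −0.61 (SE 0.53), −0.51 (SE 0.35) and −0.50 (SE 0.23) in the same order. The genotype effect had an adjusted p of 0.0684 for MIR169i (DESeq2 0.0190), 0.176 for MIR169c and 0.195 for MIR169e. Leaving out 1 library at a time, the adjusted p of MIR169e for the genotype effect ran from 0.0218 without WT MS replicate 3, at a log2 fold change of −0.79, to 0.375 without WT MS replicate 1, at −0.38, and it was at most 0.05 in 1 of 12 fits.

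MIR169c and MIR169e lie on chromosomes 2 and 4 and were each lowest in mop1-1 ABA replicate 1 and highest in WT MS replicate 1. Both overlap a protein-coding gene and a noncoding gene, as given above. The mop1 locus is on chromosome 2, where sequence linked to the crossed-in allele can differ between the genotypes. Of the 4 tested precursor genes on that chromosome, MIR2118d lies nearest to mop1 in RefSeq gene order, and MIR169c, MIR393a and MIR2275d lie 724, 1191 and 1902 protein-coding genes away. Whether linked sequence has a part in any of these values was not tested.

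In Group D, no precursor gene was called by the quasi-likelihood test, against 0.905% of all features, and none by the edgeR exact test (2.11%) or DESeq2 (2.41%). There were 3 genes (MIR159a, MIR168b and MIR169i) with all mop1-1 MS libraries below all WT MS libraries, 3 of 22 against 13.3% of all features in either direction and 5.85% in that one. At an unadjusted p under 0.05 there were 2 of 22, MIR159a and MIR396d, both lower in mop1-1 MS, against 10.2% of all features in either direction and 5.04% lower. The median log2 fold change was −0.35, against 0.00 over all features, and 17 of 22 genes were below 0, against 50.7% of all features. For the genotype effect no gene was called by the quasi-likelihood test, against 2.78% of all features, or by DESeq2 (4.05%). There were 6 of 22 genes with an unadjusted p under 0.05 (MIR159a, MIR162, MIR168b, MIR169c, MIR169e and MIR169i), all lower in mop1-1, against 19.5% of all features in either direction and 10% in that one.

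The MIR168 and MIR396 families each had 2 tested members. MIR168b had 0.773, 0.743 and 0.896 CPM in mop1-1 MS against 0.914, 0.984 and 2.76 CPM in WT MS, and 0.838, 0.898 and 1.07 CPM in mop1-1 ABA against 1.61, 2.91 and 0.745 CPM in WT ABA. Its highest values were in 1 library of each WT group, with log2 fold changes of −0.95 (SE 0.55) in Group D and −0.91 (SE 0.55) in Group C. MIR168a did not follow it: it had 19.9, 19.3 and 13.9 CPM in mop1-1 ABA against 9.88, 15.1 and 14.4 CPM in WT ABA, and 16.1, 10.8 and 16.9 CPM in mop1-1 MS against 13.9, 10.6 and 28.5 CPM in WT MS, and both pairs of groups overlapped. MIR396 acts on growth-regulating factors. MIR396d had 8.26, 4.13 and 5.39 CPM in mop1-1 MS against 6.66, 8.45 and 15.0 CPM in WT MS, with a log2 fold change of −0.76 (SE 0.31) in Group D and an adjusted p of 0.394. The highest of these was WT MS replicate 3, without which the log2 fold change was −0.35, and leaving out the other libraries in turn gave values down to −1.08. MIR396d had 6.62, 5.52 and 5.34 CPM in mop1-1 ABA and 6.01, 6.10 and 7.12 CPM in WT ABA. MIR396a had a level of 2.79 to 5.14 CPM in all 12 libraries, with log2 fold changes of 0.12 (SE 0.24) in Group C and 0.00 (SE 0.24) in Group D.

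Groups A and B ask what 1 h of ABA did in each genotype. In Group A, no precursor gene was called by the quasi-likelihood test, against 0% of all features, and none by the edgeR exact test (0.00379% of all features) or DESeq2 (0.0492%). At an unadjusted p under 0.05 there were 2 of 22 genes, MIR169c and MIR169e, both lower with ABA, against 3.83% of all features in either direction and 1.99% lower. All mop1-1 ABA libraries lay below all mop1-1 MS libraries in 3 of 22 genes, those 2 and MIR167e, against 9.71% of all features in either direction and 5.02% in that one. The log2 fold change was −1.30 (SE 0.54) for MIR169c, −0.83 (SE 0.35) for MIR169e and −0.70 (SE 0.57) for MIR167e, and all 3 had an adjusted p of 1. Without mop1-1 MS replicate 3 the log2 fold change of MIR169c was −0.75. MIR167e had 0.493, 0.674 and 0.889 CPM in mop1-1 ABA against 0.891, 1.30 and 1.15 CPM in mop1-1 MS.

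In Group B, no precursor gene was called by the quasi-likelihood test (0% of all features), by the exact test (0.159%) or by DESeq2 (0.258%). At an unadjusted p under 0.05 there were 2 of 22, against 7.15% of all features, MIR159a with a log2 fold change of 0.42 (SE 0.19) and MIR166d with −2.97 (SE 1.32), with adjusted p of 0.691 and 0.691. MIR162, described above, was the only gene whose WT ABA and WT MS libraries did not overlap, against 11.9% of all features. The ABA effect over both genotypes called no gene (0% of all features, and DESeq2 0.129%), and 3 of 22 genes had an unadjusted p under 0.05, all lower with ABA, against 6.93% of all features in either direction and 3.81% lower. They were MIR166d with −2.12 (SE 0.90), MIR169c with −0.93 (SE 0.38) and MIR169e with −0.73 (SE 0.25). The precursor genes had a median log2 fold change of −0.15 for Group A, where all features had 0.00, and of −0.25 for Group B, where all features had −0.01. There were 16 of 22 genes below 0 in each, against 50.1% and 52% of all features.

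**Figure D4:**
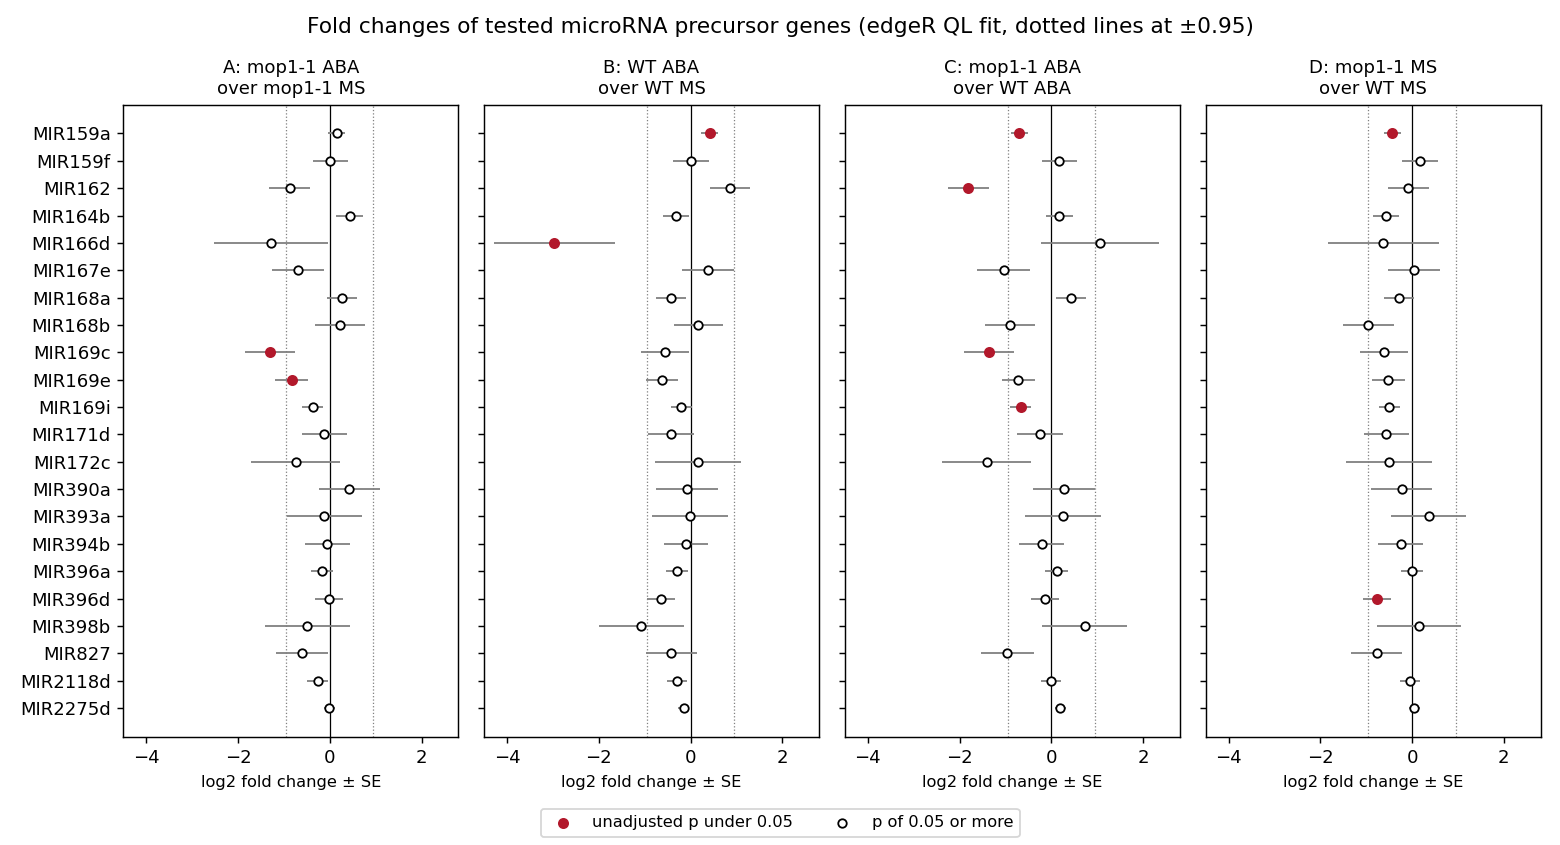
log2 fold change (horizontal axes, with SE as bars) of the 22 tested precursor genes in Groups A to D from the quasi-likelihood fit, with dotted lines at ±0.95. Filled points have an unadjusted p under 0.05, which holds for 2, 2, 4 and 2 genes in Groups A, B, C and D, and none was called after adjustment.

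The estimate for MIR166d rested on few libraries. It had 0.296, 1.67 and 0.0970 CPM in mop1-1 ABA, 4.35, 0.364 and 0.203 CPM in mop1-1 MS, 0.347, 0.443 and 0.172 CPM in WT ABA, and 0.261, 3.13 and 4.20 CPM in WT MS. The 3 libraries mop1-1 MS replicate 1 and WT MS replicates 2 and 3 lay above 3 CPM, and the other MS libraries lay within the range of those with ABA. On the log2 scale its ABA effect over both genotypes was −0.86 without mop1-1 MS replicate 1 and −3.01 without mop1-1 ABA replicate 2, the ends of the range over leaving out each library in turn.

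The precursor genes spread more between replicates than features in general. The median over genes of the highest replicate divided by the lowest was 1.68 in mop1-1 ABA, 2.18 in mop1-1 MS, 1.55 in WT ABA and 2.21 in WT MS for the precursor genes, against 1.36, 1.36, 1.32 and 1.46 for all features. This ratio passed 3 in 4, 6, 7 and 6 of the 22 genes in the same order of groups, against 8.04%, 8.86%, 7.67% and 11.8% of all features. Many of these genes have a low level, and the part of depth in this spread was not tested.

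**Figure D5:**
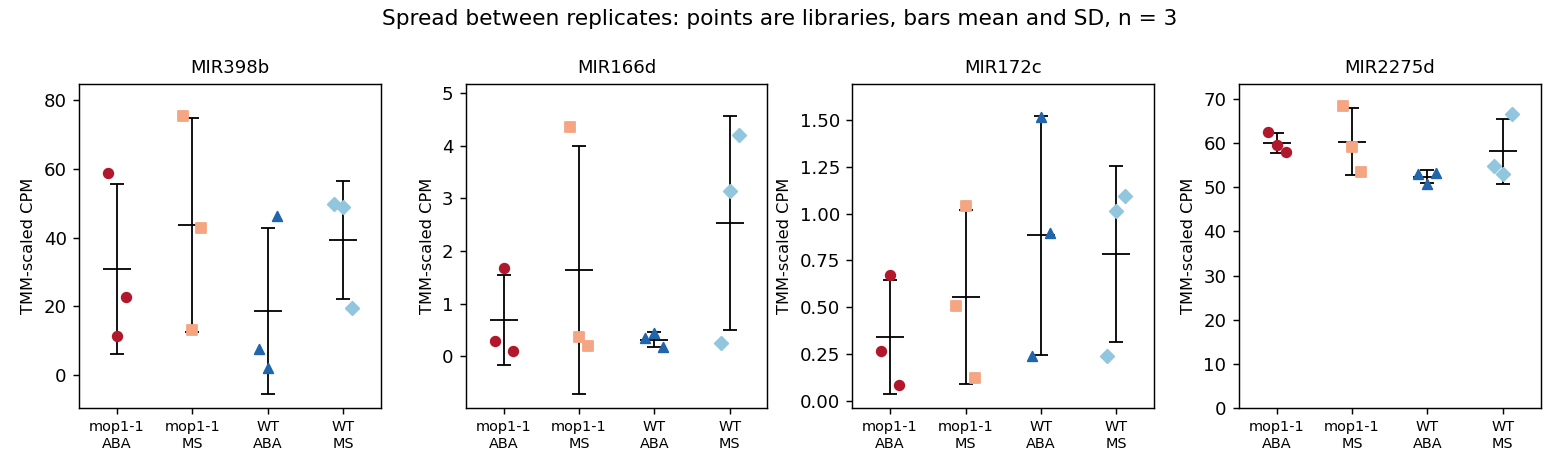
TMM-scaled CPM (vertical axes) of MIR398b, MIR166d, MIR172c and MIR2275d in each library (points) of the 4 groups, with the mean and SD of 3 libraries. MIR398b and MIR166d vary by up to 20.7-fold and 21.5-fold within a group, while MIR2275d stays between 50.7 and 68.5 CPM.

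MIR398b, of a family that represses copper/zinc superoxide dismutases and responds to copper supply, had 58.7, 11.5 and 22.8 CPM in mop1-1 ABA, 75.3, 13.1 and 42.6 CPM in mop1-1 MS, 7.58, 2.24 and 46.4 CPM in WT ABA, and 49.7, 48.7 and 19.4 CPM in WT MS. Within WT ABA the libraries differed by 20.7-fold, and all 4 groups overlapped. Its log2 fold change was −1.07 (SE 0.93) in Group B, −0.49 (SE 0.92) in Group A, 0.73 (SE 0.93) in Group C and 0.15 (SE 0.92) in Group D. The superoxide dismutase gene Sod4A had 40.4, 130.7 and 61.4 CPM in mop1-1 ABA, 58.8, 124.5 and 62.5 CPM in mop1-1 MS, 171.0, 126.8 and 77.2 CPM in WT ABA, and 98.2, 80.2 and 55.0 CPM in WT MS. In both mop1-1 groups, the library with the least MIR398b had the most Sod4A. In WT ABA that library had the middle level of Sod4A, and in WT MS it had the least. Whether the levels of these genes are linked was not tested.

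MIR2275d was the steadiest of the tested genes. MIR2275 triggers phased small RNAs of the male germ line in grasses, and this row lies in a protein-coding gene. It had 62.6, 59.6 and 57.9 CPM in mop1-1 ABA against 53.1, 50.7 and 53.3 CPM in WT ABA, with a log2 fold change of 0.20 (SE 0.12) and an adjusted p of 0.458, and 68.5, 59.1 and 53.5 CPM in mop1-1 MS against 54.9, 53.1 and 66.6 CPM in WT MS. MIR2118d, of the other family known for phased small RNAs of grass anthers, had 7.40, 9.76 and 9.77 CPM in mop1-1 ABA and 8.71, 10.1 and 13.5 CPM in mop1-1 MS, against 9.31, 10.7 and 7.08 CPM in WT ABA and 13.5, 10.5 and 9.27 CPM in WT MS. MIR164b, which acts on NAC transcription factors of organ boundaries, had 15.3, 7.76 and 8.52 CPM in mop1-1 ABA and 9.67, 7.02 and 6.76 CPM in mop1-1 MS, against 7.69, 8.92 and 11.4 CPM in WT ABA and 8.12, 13.3 and 13.3 CPM in WT MS. No pair of groups was apart in MIR2118d or MIR164b.

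The other tested genes had few counts and overlapping groups. MIR172c, which acts on AP2 factors of phase change, ranged from 0.0809 to 1.52 CPM over the 12 libraries, with a log2 fold change of −1.41 (SE 0.97) in Group C. MIR827, which acts on SPX proteins of phosphate homeostasis, ranged from 0.363 to 1.82 CPM, with −0.96 (SE 0.57) in Group C. MIR171d ranged from 0.727 to 3.35 CPM, MIR390a (which starts the trans-acting siRNA pathway to auxin response factors) from 0.443 to 1.64 CPM, MIR393a (auxin receptors) from 0.183 to 1.78 CPM and MIR394b (an F-box gene of the shoot meristem) from 0.541 to 1.30 CPM. None of these 6 genes had an unadjusted p under 0.05 in Groups A to D.

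For comparison, the MIR156 family had 7 of 10 genes tested, and its member MIR156e had 1.31 to 2.66 CPM in the 6 mop1-1 libraries against 16.1 to 22.6 CPM in the 6 WT libraries, a separation that none of the 22 genes described here showed.

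Genes of the classes that the families act on were picked by RefSeq symbol, which gave 14 features of 9 lists, of which 13 were tested. The symbol gives the gene class only, and whether each gene has a microRNA site was not checked. None was called by the quasi-likelihood test in any comparison. At an unadjusted p under 0.05 there were 2 of 13 in Group C (16% of all features), 1 for the interaction (4.24%), 2 for the genotype effect (19.5%) and 0 in Groups A, B and D and for the ABA effect over both genotypes. A gene could be named only if it stood in the paper's supplementary workbook of differentially expressed genes. The 13 genes are therefore not a fair draw from all features, and the shares beside them allow no conclusion. CA2P12 (Zm00001d041491), an NF-YA gene of the MIR169 list, had 6.56, 9.91 and 6.92 CPM in mop1-1 ABA against 24.5, 25.2 and 28.1 CPM in WT ABA, and 7.43, 14.3 and 13.0 CPM in mop1-1 MS against 39.4, 19.4 and 5.80 CPM in WT MS. With ABA the genotypes did not overlap, and in MS WT MS replicate 3 had the lowest level of all 12 libraries. Its log2 fold change in Group C was −1.74 (SE 0.50), with an adjusted p of 0.118 by the quasi-likelihood test, 0.0215 by the edgeR exact test and 0.00653 by DESeq2. Leaving out 1 library at a time, the quasi-likelihood adjusted p ran from 0.00936 without WT MS replicate 3 to 0.304 without mop1-1 ABA replicate 3, and it was over 0.05 in 10 of 12 fits. The paper lists this gene as upregulated in its 1 h Group C, opposite to the direction found here with the deposited labels. At different points, the paper also gives the counts of up- and down-regulated genes unique to its Group C in opposite order. Under these labels MIR156e had 1.46 to 2.66 CPM in mop1-1 ABA and 1.31 to 2.37 CPM in mop1-1 MS. It had 19.3 to 22.6 CPM in WT ABA and 16.1 to 18.7 CPM in WT MS, so its direction was the same in both solutions. Whether the paper's list is signed the other way or the labels of the ABA groups are exchanged was not tested.

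The AP2 gene gl15 (Zm00001d046621), which keeps juvenile leaf traits in maize and is a target of miR172, had 7.03, 7.59 and 7.31 CPM in mop1-1 ABA against 9.26, 13.5 and 11.0 CPM in WT ABA, with a log2 fold change of −0.63 (SE 0.25) and an adjusted p of 0.251. TCP8 (Zm00001d042305) had an interaction of −0.40 (SE 0.18) with an unadjusted p of 0.0461, and 12.6 to 13.0 CPM in mop1-1 ABA against 14.1 to 17.7 CPM in WT ABA. The auxin response factor genes ARF3, ARF10 and ARF23 averaged 41.7, 62.0 and 7.57 CPM, and the growth-regulating factor genes GRF9 and GRF13 averaged 2.43 and 4.94 CPM over the 12 libraries. NAC22, NAC78, GRAS76 and Laccase-7 averaged 0.649, 1.17, 2.37 and 5.45 CPM, and NAC76, at 0.195 CPM, was not tested. None of these had an unadjusted p under 0.05 in Groups A to D.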

How the data were processed

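Polyadenylated RNA of 12 libraries was sequenced by the authors as paired 150 bp reads. The deposited values are whole-number counts per gene, not normalized. The authors checked reads with fastp 0.21.0, trimmed them with Cutadapt, mapped them to B73 version 4 with HISAT2 2.2.1, assembled transcripts with StringTie 2.1.4 and derived counts with its script. Such counts come from coverage, so they need not equal mapped reads, and a hairpin row can hold reads of a longer transcript.

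Features with at least 0.58 CPM in at least 3 libraries (26401, among them 22 precursor genes) entered the quasi-likelihood test of edgeR 4.0.16 (R 4.3.3) after TMM scaling, in a model of 4 group means. Adjusted p-values follow Benjamini and Hochberg over all 26401 features. The thresholds of the study, an adjusted p of 0.05 or less with a log2 fold change of 0.95 or more in either direction, defined a call. The SE was derived from the log2 fold change and its F statistic. Alternatives were the edgeR exact test with dispersions from the 4 group means, DESeq2 1.42.0, filterByExpr, no filter on low counts, RLE scaling, no assembled loci, no fold threshold, a replicate block, the 6 libraries of a comparison alone, and leaving out each library in turn. The scripts were tested on simulated data. Depth was 38295994 to 65574775 counts per library. Each group had 3 replicates, and the spread of each gene was estimated over all 12 libraries. The part of depth in that spread was not tested.

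Values in every library are given for genes called by any of the 3 tests, genes with an unadjusted p under 0.05 and a log2 fold change past 0.95, and the 8 precursor genes of highest mean CPM, and ranges for the others. Families with 2 or more tested members are described gene by gene, with MIR159f and MIR396a given by their range. MIR167e and Sod4A are given in full besides. The precursor genes, lists and rules were chosen with earlier results of these data known. Names came from RefSeq, joined for 2027 genes through older identifiers in the paper's supplementary workbook of differentially expressed genes. Genes outside that workbook could not be joined in this way. The mop1 gene itself, which would check the genotype labels, and mature microRNA sequences were not analysed here. Libraries were checked for copies only against the replicates of their own group, and none was a copy.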

Additional observations from a re-analysis of the deposited data

How the results depend on the processing

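The count of precursor genes called was 0 in each of the 7 comparisons under RLE normalization, no low-count filter, filterByExpr, no assembled loci, the 6 libraries of a comparison alone (Groups A to D), and without each of the 12 libraries in turn (range 0 to 0). It was 1 in Group C by the edgeR exact test and 1 by DESeq2, both MIR162, and 1 for the genotype effect with no fold threshold, MIR159a. Over all features, the quasi-likelihood fits called 139 to 666 in Group C, 88 to 449 in Group D and 396 to 896 for the genotype effect. They called at most 2 in Group A, 7 in Group B, 2 for the interaction and 35 for the ABA effect over both genotypes. In those last comparisons a count of 0 precursor genes was nearly fixed beforehand. The number of precursor genes tested, 22, was 29 with filterByExpr, 19 with 0.58 CPM in every library of at least 1 group, and 47 with at least 10 counts over 12 libraries. With the replicate number as a block, the count of calls was 0 in all 7 comparisons. Same-numbered libraries did not deviate together more than others, with r of −0.169 to 0.0976 against −0.188 to 0.22 for other pairs. Of the 12 libraries, 0 correlated best with their own number. The counts thus gave no sign of pairing, but they cannot exclude that samples were handled in numbered sets.

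For CA2P12, the Group C log2 fold change of −1.74 passed the threshold with the exact test (−1.73), DESeq2 (−1.74) and the 6 libraries alone (−1.74), and without WT MS replicate 1 or 3. The genotype effect of −1.31 passed with no low-count filter (−1.33), DESeq2 (−1.32) and without WT MS replicate 3 (−1.54). The cause was not tested. The 20 values of precursor genes followed singly were picked in these same data. Each had an unadjusted p under 0.05 by the quasi-likelihood test or an adjusted p of at most 0.05 by the exact test or DESeq2. They kept their direction under all alternatives, which this choice makes likely, so it is no separate evidence. Of 2568 values of the other 134 pairs of gene and comparison, 0 passed the threshold and 176 had the other sign. With 3 libraries per group and a median ratio between replicates of 1.55 to 2.21, the spread limits which differences can be told from 0.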
